A study of Homo sapiens with 9 samples.

Results

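The baseline transcriptome of PANC-1 was read from the 3 solvent-treated arrays of a 9-array series, those labelled as DMSO controls, without reference to the arrays of treated cells. PANC-1 is an established human line grown from an epithelioid carcinoma of the pancreatic duct and widely used as a model of that cancer. The other 6 arrays hold cells exposed to 5 uM of the compound BRD7552, 3 after 6 h and 3 after 72 h, and are not used here. The 3 control arrays carry total RNA of the line kept in medium with DMSO, the vehicle of the compound. Their labels name no genetic change and no exposure time, so the time in culture before harvest is not given in the sources used here. The question is which genes of lineage, cell structure, signalling, matrix and metabolism the line shows before any compound. As a model it carries none of the stroma, vessels or immune cells of a tumour, and it is grown on plastic.

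Each array gave a signal on a linear scale for 54675 probe sets, and 19775 genes were represented by their brightest probe set over the 3 arrays. As the table holds no detection call, a lower bound was taken from gene families with restricted expression. These were olfactory, bitter taste and vomeronasal receptors and keratin-associated hair proteins, 138 genes in all. Whether PANC-1 uses any of these genes was not tested. The bound was the 95th percentile of these genes on each array, a signal of 23.5, 25.6 and 25.9 on replicates 1, 2 and 3. A gene over its array's bound on all 3 arrays is called above the bound, and a gene over it on no array is called at background. By this rule 11121 of 19775 genes were above the bound (56.2%), 7975 were at background (40.3%) and 679 passed on 1 or 2 arrays. Every count of list members has to be read against 56.2%, and against 64.0% for protein-coding genes alone. Of the genes above the bound 7430 had several probe sets, of which 2191 passed by 1 probe set only and 2946 by all. Where the other probe sets of a gene are not mentioned below, they need not have passed. A signal at background means that the probes did not exceed this range, not that no transcript was present. Signals of different genes depend on their probes, so a rank is a rank of brightness and not of transcript number. Values on the arrays are given in the order of replicates 1, 2 and 3, and errors are SD over the 3 arrays. Genes that passed on 1 or 2 arrays are named below only after their values were seen.

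The 3 arrays were alike. Their median probe set signals were 18.3, 17.8 and 18.2, and the rank correlation over probe sets was 0.989 to 0.990 for each pair. The median SD of a gene was 0.076 log2 units over all genes and 0.062 over those above the bound. The labels do not say that the replicates came from separate cultures, so this spread may be technical. Between 5.60% and 5.78% of probe sets had exactly equal values on a given pair of arrays, and for such genes the SD is too small as a measure of error. MIF, a cytokine gene, was listed at 6635 on every array.

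A few genes of nervous tissue set replicate 3 apart. GFAP, the intermediate filament of astrocytes, had signals of 13.6, 13.2 and 42.4, and the other GFAP probe sets did not show the difference. FAM107A, an actin-binding protein of brain, stood at 108, 80.6 and 316. GPM6B, a membrane glycoprotein of neurons and oligodendrocytes, stood at 106, 108 and 234, and PCDH9, a protocadherin of brain, at 52.6, 48.8 and 99.3. For TMEFF2, a transmembrane protein of brain and prostate, the signals were 318, 240.1 and 516. In each of these genes replicate 3 was the highest by the probe set shown, and replicates 1 and 2 lay closer together. CYFIP2, a regulator of actin branching, followed the same order with 25.4, 20.5 and 56.97. The other probe sets of PCDH9, TMEFF2 and CYFIP2 were dim and, as for GFAP, did not show the difference. FAM107A was higher on replicate 3 by both probe sets, with gaps of 1.55 and 0.471 log2 units. GPM6B had gaps of 1.40 and 1.12 on its bright probe sets and at most 0.244 on its dim ones. Replicate 3 was also the highest for GABRB1, a GABA receptor subunit (25.7, 25.1 and 41.8), BCAS1 of oligodendrocytes (26.1, 25.9 and 42.4), the homeobox gene LHX2 (29.8, 25.3 and 44.5), MOBP of myelin (14.6, 19.8 and 28.99) and, by less, SLC1A2, a glutamate transporter (56.6, 52.9 and 66.1). The other probe sets of GABRB1 and MOBP did not show a gap of that size. Further genes of neural and glial cells were divided. GPM6A passed on every array and was highest on replicate 3 (24.3, 28.2 and 31.6), and SNAP25 passed on replicate 1 alone (24.4, 24.4 and 25.5). MOG and MAG of myelin, AQP4 and S100B of astrocytes, OLIG1 and OLIG2 of the oligodendrocyte lineage and NEFL of neurons were at background on all 3 arrays. MBP, which encodes myelin basic protein and is also read in many other cells, stood at 1318, 1360.4 and 1414. Over all genes, 12 were more than 0.5 log2 units higher on replicate 3 than on both others, against 7 on replicate 1 and 7 on replicate 2, and 23 were lower by that amount on replicate 2. FAM107A, GPM6B, PCDH9 and TMEFF2 were above the bound with and without replicate 3, while GFAP passed on replicate 3 alone and CYFIP2 on replicates 1 and 3. The source of these signals was not tested. GFAP, CYFIP2, MBP, GABRB1, BCAS1, LHX2, MOBP, SLC1A2, GPM6A, SNAP25 and the neural genes at background were chosen after their values were seen.

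**Figure D1:**
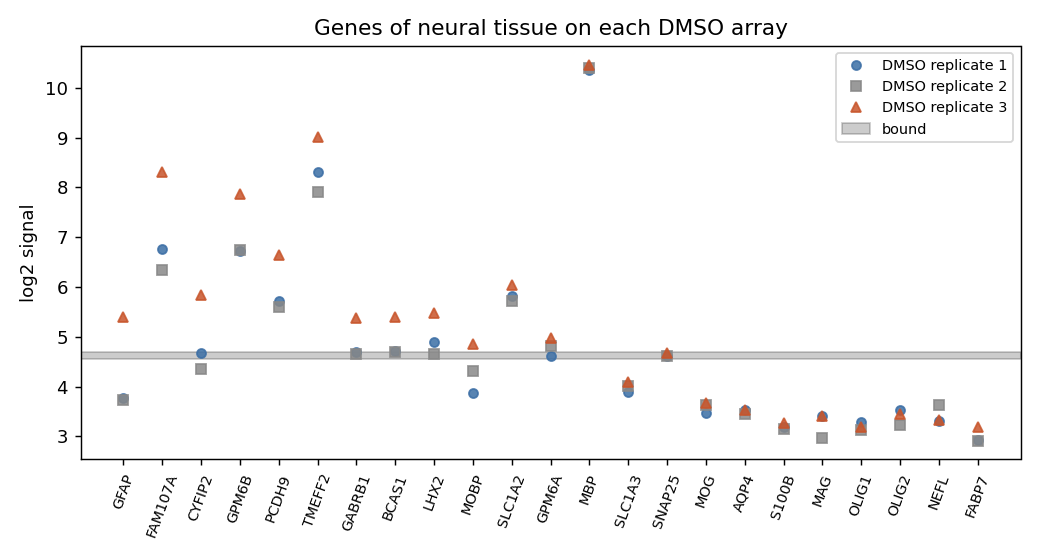
Log2 signal (y axis) of genes of neural tissue (x axis) on each of the 3 DMSO arrays, 1 symbol per array; the grey band spans the bounds of the 3 arrays. The replicate 3 points of GFAP, FAM107A, CYFIP2, GPM6B, PCDH9 and TMEFF2 lie above both others, while all points of MOG, AQP4, S100B and OLIG1 lie close together below the band.

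Ribosomal protein genes were the most frequent among the brightest genes. RPS16, a protein of the small ribosomal subunit, had the highest signal, 24363 ± 275 (SD, n = 3). EEF1A1, the elongation factor that brings aminoacyl-tRNA to the ribosome, followed with 20013 ± 65.9. Of the 25 highest signals 12 belonged to ribosomal protein genes, and of the highest 100 it was 37. Among the other genes in the first 25 were the filament genes VIM (17046) and KRT18 (16982) and the tubulins TUBA1B (15735) and TUBA1C (15048). S100A6, a calcium-binding protein, stood at 15894 ± 189, its partner annexin gene ANXA2 at 15812 ± 172 and the metallothionein gene MT2A at 14906 ± 225. The list also held FBL, the methyltransferase of nucleolar RNA, the peptidyl-prolyl isomerase gene PPIA, PABPC1, which binds poly(A) tails, the growth-related TPT1 and the ubiquitin gene UBB. The 100 brightest genes together made up 14.1% of the summed signal.

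**Figure D2:**
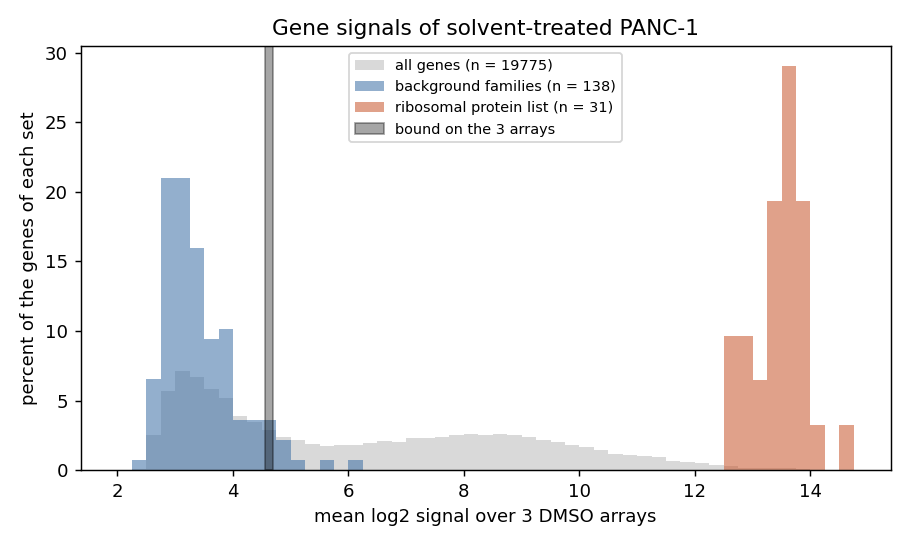
Share of genes (y axis, percent of each set) by mean log2 signal over the 3 DMSO arrays (x axis), for all 19775 genes, the 138 genes of the background families and 31 ribosomal protein genes; the grey band spans the bounds of the 3 arrays. The background families lie at the dim end, where a large part of all genes also falls, and the ribosomal protein genes at the bright end.

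Protein-coding genes were above the bound in 10577 of 16517 cases (64.0%) and long noncoding RNA genes in 380 of 2658 (14.3%). MALAT1, a nuclear noncoding RNA, was among the above-bound genes with the largest spread, with 1862, 2637 and 1432, lowest on replicate 3 and highest on replicate 2. The others of the 10 most variable were FAM107A, GPM6B, PCDH9 and TMEFF2, already described, the antisense transcript CNTFR-AS1 (53.97, 58.9 and 132), the kinase gene CDKL2 (44.6, 57.7 and 29.7), TMPRSS6, a membrane protease (64.98, 35.05 and 57.8), CACNA1A, a neuronal calcium channel (116, 64.02 and 90.5), and IRF2BP1, a corepressor of IRF2 (35.95, 61.2 and 59.5). No array was the highest for all of them. By chromosome, the share of protein-coding genes above the bound ran from 53.3% on X and 56.0% on 4 to 72.0% on 22 and 73.0% on 16.

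The promoters of the genes above the bound differed from those of genes at background in base composition. Many promoters of widely used genes carry a CpG island, a stretch in which the dinucleotide CG has not been lost by mutation of methylated cytosine, while many tissue-restricted genes have few CG and a TATA box near the start. RefSeq promoters (GRCh38.p14, 250 bases before to 50 bases after the start) were matched by symbol for 15384 genes. The first promoter listed for a symbol was used, and any other start of the gene was left out. The observed over expected frequency of CG had a median of 0.849 for 9158 genes above the bound and 0.408 for 5739 at background. It exceeded 0.6 in 84.997% of the former and 38.2% of the latter, against 48.9% of all 27305 promoters in the table. The letters TATAAA, searched on both strands, were found in 5.20% of promoters above the bound, 14.3% at background and 11.95% of all promoters. Among the genes above the bound the share over 0.6 was 71.7% in the dimmest 25% by signal and 87.2%, 90.4% and 90.7% in the bands of 25% above it. No test was made, since genes that share a family also share promoter type. Most genes of the background families that set the bound fall, by its construction, among the genes at background, although 5 of the 138 were above it on all 3 arrays, and 3.74% of their 107 matched promoters exceeded 0.6.

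The 120 bases before the start of 8 genes described below show these classes, chosen after the classes were known. Capitals mark every CG and TATAAA on the gene's strand. YAP1, a coactivator of growth genes, and MET, the receptor of hepatocyte growth factor, were above the bound with 18 and 14 CG in the window. The keratin gene KRT8 and the receptor gene AXL were above the bound with 1 and 2. PAX6 of the endocrine lineage and HOXD10 were at background with 12 and 5, and their 300-base promoters had observed over expected values of 0.771 and 0.861. The hormone genes INS and GCG were at background, with 3 and 2 CG and a TATAAA each. The windows lie at chr11:102110327-102110446 for YAP1 (plus strand), chr7:116672076-116672195 for MET (plus), chr12:52926470-52926589 for KRT8 (minus), chr19:41219103-41219222 for AXL (plus), chr11:31817962-31818081 for PAX6 (minus), chr2:176116658-176116777 for HOXD10 (plus), chr11:2161210-2161329 for INS (minus) and chr2:162152248-162152367 for GCG (minus), all GRCh38.p14, 5′ to 3′ on the gene's strand.
YAP1: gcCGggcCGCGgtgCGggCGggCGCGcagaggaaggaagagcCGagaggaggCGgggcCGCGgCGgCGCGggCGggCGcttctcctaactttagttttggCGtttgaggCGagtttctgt
MET: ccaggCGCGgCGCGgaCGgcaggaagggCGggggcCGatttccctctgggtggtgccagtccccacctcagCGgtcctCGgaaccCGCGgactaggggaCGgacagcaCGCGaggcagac
KRT8: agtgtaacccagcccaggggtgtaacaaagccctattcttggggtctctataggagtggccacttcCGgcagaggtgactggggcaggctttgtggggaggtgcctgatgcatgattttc
AXL: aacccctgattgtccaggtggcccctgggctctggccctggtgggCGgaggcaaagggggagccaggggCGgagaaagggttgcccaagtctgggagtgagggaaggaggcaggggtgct
PAX6: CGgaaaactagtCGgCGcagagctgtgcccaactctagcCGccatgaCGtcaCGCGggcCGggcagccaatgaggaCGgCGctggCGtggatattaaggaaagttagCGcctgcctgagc
HOXD10: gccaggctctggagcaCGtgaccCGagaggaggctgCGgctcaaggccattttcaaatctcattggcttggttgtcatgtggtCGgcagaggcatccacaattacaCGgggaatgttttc
INS: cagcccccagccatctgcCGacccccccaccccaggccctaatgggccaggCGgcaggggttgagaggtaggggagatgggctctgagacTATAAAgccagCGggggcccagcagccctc
GCG: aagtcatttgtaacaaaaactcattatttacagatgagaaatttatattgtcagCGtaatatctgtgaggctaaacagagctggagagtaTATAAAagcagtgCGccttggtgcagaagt
By the promoters used, CG content differed with the class over all genes. It did not do so in each gene, as KRT8 and AXL on the one side and PAX6 and HOXD10 on the other show. Whether these promoters hold the starts that PANC-1 uses was not tested, so a gene such as KRT8 may be read from another start. All 7 matched HOXD promoters belonged to genes at background, and 85.7% of them exceeded 0.6. For the endocrine factors the share was 77.8% of 9 promoters, for the acinar enzyme genes 7.69% of 13.

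The pancreas arises from foregut endoderm. Early progenitors make PDX1, SOX9 and GATA factors, and exocrine duct, acinar and endocrine cells then keep different parts of this set. In PANC-1, 9 of 20 measured pancreas and duct factors were above the bound (45.0%), 2 passed on some arrays and 9 were at background. SOX9, which marks progenitors and adult ducts, was bright, with signals of 1832, 1718 and 1828. RBPJ, the DNA-binding partner of Notch, stood at 733, 733 and 732, FOXA2, a pioneer factor of endoderm, at 407, 438 and 392 and HHEX, a homeobox factor of foregut and duct, at 217, 218 and 229. These 4 genes varied little between arrays and lay far above the bound. GATA4 stood at 101, 94.4 and 89.99. GATA6 (43.1, 38.6 and 40.02), the homeobox factor MNX1 (38.6, 42.2 and 45.2) and the orphan receptor NR0B2 (37.7, 38.6 and 42.7) were dim but passed on every array.

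PDX1, required for pancreas formation, was at background with 20.1, 18.8 and 21.2, and none of its 3 probe sets passed. The same held for ONECUT1, a factor of duct development (15.3, 15.9 and 16.7), FOXA1 (15.1, 13.3 and 13.3), HNF4G (9.13, 10.8 and 10.04) and SOX17, a factor of early endoderm and bile duct (17.3, 18.7 and 12.4). RBPJL and BHLHA15, factors of acinar cells, were at background as well (20.9 and 10.8). PROX1 passed on 1 array and CDX2 on 2. Several of the 9 genes above the bound were dim: against the 99th percentile of the background families 5 remained above it. HNF4A and PTF1A were not analysed here.

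Factors that hold the epithelial state were divided. TFAP2A, an AP-2 factor of surface ectoderm, stood at 918, 945 and 905, and the forkhead gene FOXQ1 at 826, 812 and 826. TFAP2C (134), KLF4 (132), the grainyhead genes GRHL1 (121) and GRHL3 (75.4) and the ETS factor SPDEF (75.1) were above the bound too. GRHL2, which maintains junction genes, was at background with 9.94, 9.32 and 10.2, and so were KLF5 (13.3), EHF (19.7), OVOL1 (18.7) and OVOL2 (17.8). ELF3 passed on 1 array. In all, 7 of 13 were above the bound.

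Genes of the endocrine lineage were at background almost throughout. None of 13 measured endocrine factors passed on any array. They included NEUROG3, which starts endocrine differentiation (11.7, 9.82 and 10.95), NKX6-1 of beta cells (8.86, 9.97 and 11.6), NKX2-2 (10.7, 8.02 and 8.43), ISL1 (8.02, 8.41 and 8.63), INSM1 (7.13, 7.19 and 6.86), PAX4 (14.6, 17.01 and 14.6) and PAX6 (13.5, 13.9 and 15.9). MYT1, a zinc finger factor of endocrine precursors, came closest to the bound with 20.9, 18.6 and 23.7. Of 15 islet genes, 14 were at background. INS, which encodes insulin, stood at 8.02, 8.48 and 6.79, GCG, which encodes glucagon, at 7.28, 7.03 and 7.58 and IAPP, the amyloid peptide of beta cells, at 8.69, 8.20 and 6.81. SLC2A2, the beta cell glucose transporter, was at 8.16, 8.04 and 6.93. These values lay within the range of the background families, whose median was 9.55. GIPR, the receptor of the incretin GIP, was above the bound but dim (30.2, 26.2 and 26.9), and was not above the 99th percentile.

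The machinery of dense-core vesicles, which store peptide hormones, was partly present. PAM, the enzyme that amidates peptides, stood at 1398, 1454 and 1398 and SYTL2, a tether of secretory vesicles, at 1723, 1766 and 1648. RAB27B (419), RAB3B (93.6) and RAB26 (79.4), small GTPases of secretion, and SYP, the vesicle protein synaptophysin (39.3), were above the bound. Cargo and processing genes were divided. VGF, a granin-like precursor (41.4, 45 and 37.2), PCSK1N, an inhibitor of prohormone convertase (44.8, 32.8 and 48.6), and CHGB, chromogranin B, named after its value was seen (41.7, 32.5 and 38.6), were dim but above the bound. Others were at background. CHGA, chromogranin A, stood at 10.04, 10.4 and 11.03, SCG3, a granin, at 6.23, 6.81 and 5.77 and CPE, carboxypeptidase E, at 11.8, 10.8 and 10.4. Over the list 10 of 18 were above the bound (55.6%), close to the share over all genes, and 5 against the 99th percentile.

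Acinar cells of the pancreas make digestive enzymes, and 14 of 17 of their measured markers were at background. CPA1, a carboxypeptidase, stood at 7.50, 7.50 and 8.07, PNLIP, pancreatic lipase, at 10.6, 11.9 and 10.9 and CEL, carboxyl ester lipase, at 10.9, 10.9 and 10.9. CUZD1, a membrane protein of zymogen granules, was the 1 gene above the bound (51.5, 54.9 and 48.3). CLPS and CELA3A passed on some arrays, and without replicate 2 the count above the bound was 2.

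Ductal markers were present in part. KRT19, the duct keratin, stood at 6859, 6883 and 6626, and CD24, a surface glycoprotein of progenitors and carcinoma, at 3021, 3096 and 2995. ANXA4, an annexin of secretory epithelium, stood at 2510.0, 2554 and 2510.0 and AGR2, a disulfide isomerase for mucins, at 1456, 1491 and 1394. MUC1, a mucin of the duct surface, had signals of 314, 283 and 314, and CA2, the carbonic anhydrase of duct cells, stood at 89.6, 103 and 85.9. KRT7 reached 125, 121 and 124 by 1 of its 4 probe sets. MMP7, a matrix protease of injured duct, was at 69.3, 92.5 and 72.1. Genes of fluid and bicarbonate transport were divided. SLC4A4, a sodium bicarbonate cotransporter named after its value was seen, was above the bound with 43.4, 39.2 and 55.5, and SCTR, the secretin receptor, passed on 1 array. At background were other transport and surface genes. CFTR, the chloride channel, stood at 12.2, 11.5 and 16.5, AQP1, a water channel, at 9.89, 9.22 and 8.87, SPP1, osteopontin, at 9.74, 9.53 and 10.1 and PROM1, which encodes CD133, at 8.02, 7.10 and 9.25. Of 23 ductal markers 14 were above the bound (60.9%), close to the share over all genes, and 9 against the 99th percentile.

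**Figure D3:**
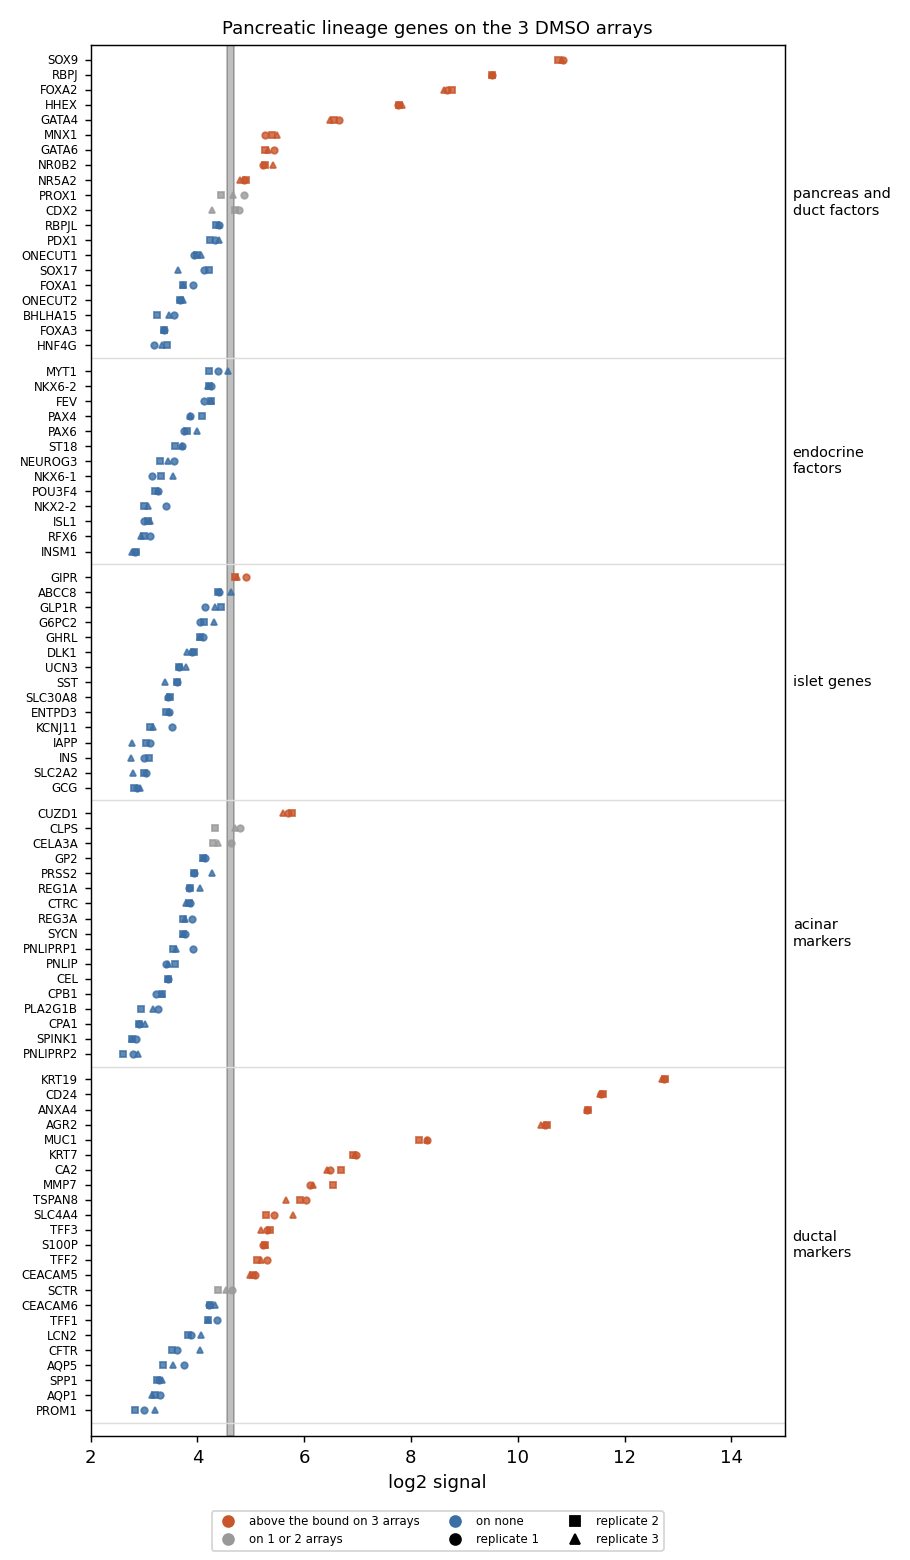
Log2 signal (x axis) of each measured pancreatic lineage gene (y axis) on the 3 DMSO arrays, 1 symbol per array, coloured by class; the grey band spans the bounds of the 3 arrays. SOX9, RBPJ, FOXA2 and the ductal genes KRT19, CD24, ANXA4 and AGR2 lie far to the right, and the endocrine factors lie at or left of the band.

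Keratins are the filaments of epithelial cells, and each type of epithelium pairs particular acidic and basic members. PANC-1 carried the pairs of simple epithelium. KRT18 stood at 17229, 16552 and 17164, its partner KRT8 at 8563, 8459 and 8797 and KRT19 at 6859, 6883 and 6626. They stood at percentiles 99.97, 99.42 and 99.16 of all genes by signal. KRT80 (154, 156 and 163) and KRT7 were dimmer. KRT20 of gut epithelium (7.13, 8.06 and 7.72) and KRT23 (7.06, 6.86 and 7.92) were at background, so 5 of 7 simple keratins were above the bound. Of 7 measured keratins of basal and stratified epithelium KRT15 alone was above it, with 108, 112 and 108, while KRT5 (20.4, 21.9 and 21.8), KRT14 (11.6, 11.9 and 13.5), KRT16, KRT4 and KRT13 were at background. KRT75 passed on 1 array. KRT17 and the KRT6 genes were not analysed here.

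Keratins of cornified and hair tissue were dim, with 1 exception. KRT10, a keratin of the upper epidermis, was bright by all of its 3 probe sets (1699, 1698 and 1647). KRT9 passed on 2 arrays, and the 15 others of this list were at background. In the hair shaft list KRT32 stood at 37.8, 37.8 and 38.5, KRT83 passed on some arrays and 10 of 12 were at background. Without replicate 2, 2 genes of each of these lists were above the bound.

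Vimentin, the filament of mesenchymal cells, stood beside the keratins. VIM had signals of 17139, 16939 and 17059 and both of its probe sets were above the bound. The nuclear lamins LMNA (2711), LMNB1 (1346) and LMNB2 (776) were above the bound, as they are in most cells. NES, a filament of progenitor cells, stood at 887, 889.5 and 984 and SYNM, which co-assembles with vimentin, at 1030.0, 1145 and 1096. The lens filament BFSP1 (78.6) and PRPH of peripheral neurons (62.9) were dim but above the bound. DES of muscle (22.6, 19.2 and 22.7) and the neurofilaments NEFL, NEFM and NEFH were at background. Over the list 8 of 15 passed on every array.

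Epithelial junction genes were mostly above the bound, as protein-coding genes were in general, and E-cadherin was dim. Tight junctions seal neighbouring cells and adherens junctions, built on E-cadherin and catenins, hold them together. CDH1, which encodes E-cadherin, stood at 46.4, 58.4 and 52.4 by 1 of its 2 probe sets, and the other was at background. The catenins CTNNB1 (2745, 2859 and 2707) and CTNNA1 (2054, 2043 and 2137), the tight junction genes OCLN (1543, 1637 and 1579), CLDN1 (1027, 1008 and 1000.3), TJP1 (999, 988 and 985) and MARVELD2 (388) and the adhesion molecule EPCAM (503, 515 and 471) were far above the bound. SPINT2, an inhibitor of surface proteases, stood at 3880.4, 3822 and 3944. At background were ESRP1, the epithelial splicing regulator (12.7, 11.4 and 10.8), RAB25, a GTPase of epithelial recycling (8.42, 8.40 and 9.39), the protease gene ST14 (21.8, 22.1 and 17.6), TJP3 (16.9), PKP2 (10.4), MARVELD3 (12.5) and CLDN18, a claudin of stomach (15.3). In sum 20 of 28 were above the bound (71.4%), against 64.0% of protein-coding genes. SPINT1, the paralogue of SPINT2, was the list member closest above its bound, by 0.0043 log2 units.

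Some mesenchymal genes were present beside them. ZEB1, a repressor of E-cadherin, stood at 752, 803 and 786 and N-cadherin, CDH2, at 510.3, 554 and 529.9. S100A4, a calcium-binding protein of motile cells, stood at 5941, 6061 and 5981, AXL, a receptor kinase, at 2686, 2737 and 2620.5 and SPARC, a matrix glycoprotein, at 1494, 1452 and 1452. The oxidase gene LOXL2 (482, 552 and 548) and the forkhead gene FOXC2 (248, 279.6 and 253) were also above the bound. The second ZEB gene, ZEB2, was at background by all of its 5 probe sets (7.63, 8.82 and 9.18). TWIST1 (6.97, 6.39 and 6.39), PRRX1 (12.9, 13.6 and 15.5) and fibronectin, FN1 (13.8, 13.8 and 15.96), were at background, FN1 by all of its 7 probe sets. SNAI1 passed on 2 arrays and SNAI2 on 1, each close to the bound. Of 21 measured mesenchymal genes 12 were above the bound (57.1%), 4 passed on some arrays and 5 were at background. The share above the bound was close to that over all genes.

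**Figure D4:**
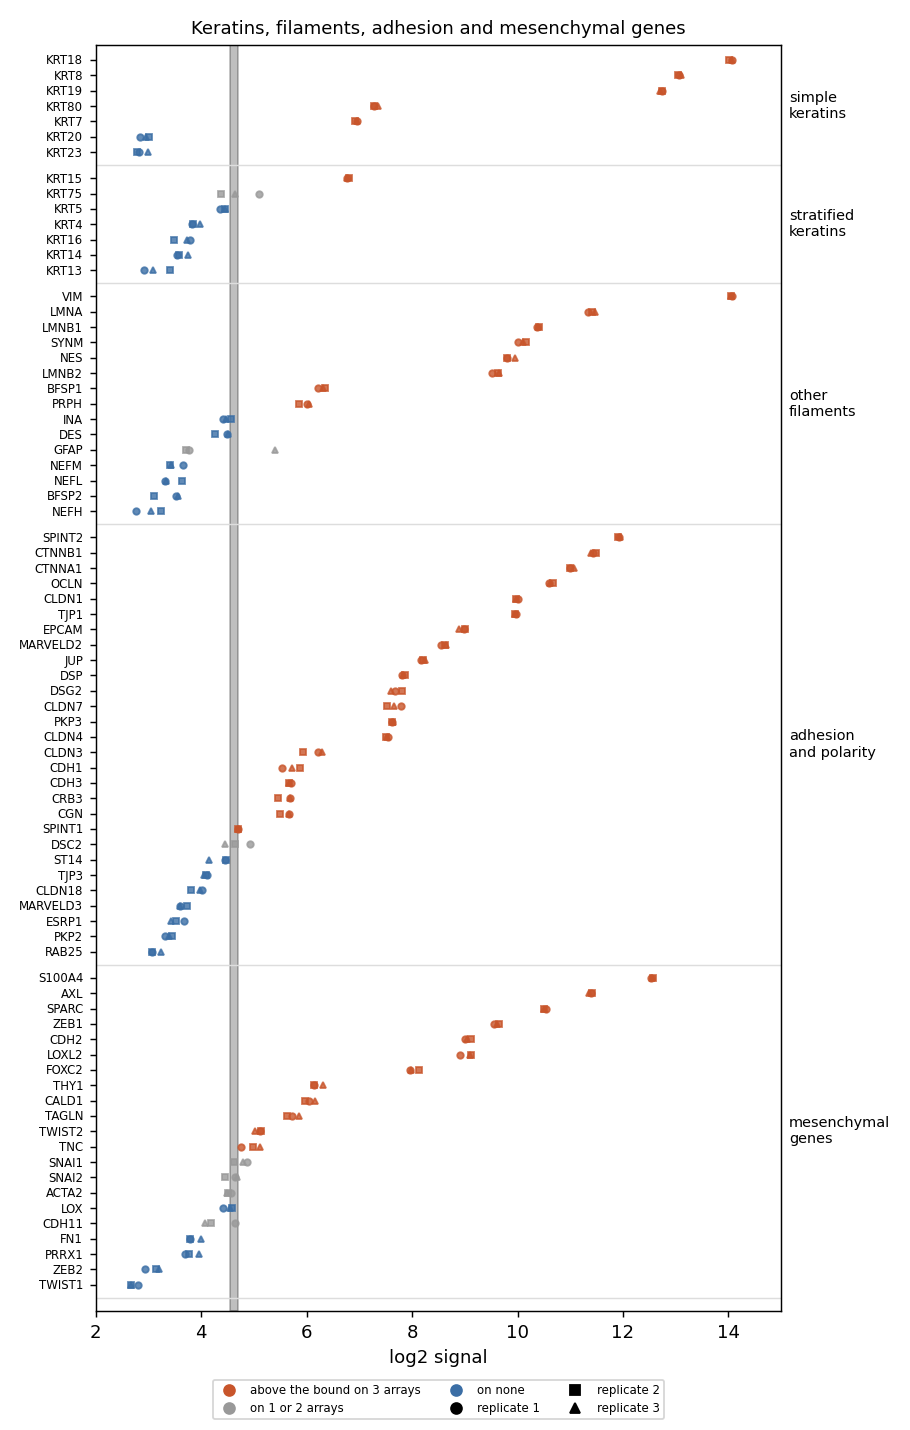
Log2 signal (x axis) of each measured keratin of simple and stratified epithelium, other intermediate filament, epithelial adhesion gene and mesenchymal gene (y axis) on the 3 DMSO arrays, 1 symbol per array, coloured by class; the grey band spans the bounds. KRT18, KRT8, KRT19 and VIM lie at the right edge, CDH1 lies just right of the band, and CDH2 and ZEB1 lie well to its right.

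HOX genes give cells their position along the body axis and are kept as clusters on 4 chromosomes. The clusters differed in PANC-1. In the HOXB cluster 9 of 10 genes were above the bound, led by HOXB7 (1142, 1206 and 1228), HOXB2 (1083, 1133 and 1112) and HOXB3 (686, 716 and 644), with HOXB1 at background (17.6, 13.3 and 11.2). In the HOXC cluster 7 of 9 were above it, among them HOXC6 (1102, 1129.7 and 1135), HOXC10 (479, 498 and 489.6) and HOXC13 (282, 330.4 and 288), with HOXC12 at background (15.2) and HOXC8 passing on some arrays. All 8 measured HOXD genes were at background, for example HOXD10 (13.05, 13.05 and 12.4), HOXD13 (13.8) and HOXD8 (8.34). Of the HOXA cluster only HOXA2 was measured, at 34.6, 35.5 and 29.98, and the other members were not analysed here. The contrast of HOXB and HOXC with HOXD held under every alternative setting tried, each of which left at least 7 HOXB genes, 6 HOXC genes and 0 HOXD genes above the bound.

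Genes of the PAX, EYA and sine oculis homeobox families, which work together in kidney, ear and muscle, were above the bound in 7 of 18 cases. PAX2, a factor of kidney and duct tissue of the urogenital tract, stood at 226, 240.3 and 239 and both of its probe sets passed. PAX8 reached 91.5, 92.7 and 95.05 by 1 of its 8 probe sets, the others being at background. EYA3 (325) and SIX4 (172) were above the bound. PAX1, PAX3, PAX4, PAX5, PAX6 and PAX7 were at background.

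Among SOX factors SOX9 and SOX4 (1472, 1538 and 1559), a factor of progenitors and carcinomas, were bright, and 5 of 20 were above the bound. SOX2 of stem cells was at background (21.1, 19.3 and 23.4), as were SOX1, SOX3, SOX11 and SOX17. All GATA factors but GATA1 of blood (15.2, 13.9 and 13.9) were above the bound: GATA2 (456, 449 and 461), GATA3 (243, 248 and 243), GATA5 (224, 177 and 209), GATA4 and GATA6. In the KLF and SP family, zinc finger factors of GC-rich promoters, 14 of 25 were above it, with KLF10 (2337), KLF6 (1830.2) and SP3 (1485) in front and KLF5, KLF9, KLF8 and KLF1 at background.

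Factors at the end of signalling pathways were above the bound in 39 of 47 cases (83.0%). The Hippo pathway coactivators WWTR1, also called TAZ (4031, 3969 and 3985), and YAP1 (2842, 2934 and 2762) and their DNA-binding partner TEAD1 (2493, 2503 and 2521) were bright on every array. The hypoxia factors EPAS1 (3745, 3809.9 and 3654) and HIF1A (3126, 3279.8 and 3004), whose activity is set mainly by protein turnover, stood beside them. JUN of AP-1 stood at 2776, 2794 and 2755, while its partner FOS was listed at 13.9 on every array, at background. STAT3 (2259, 2609 and 2511), NFE2L2 of the oxidative stress response (2375, 2626 and 2480.4) and MYC (1284, 1213 and 1346) were above the bound. GLI1, the target and effector of Hedgehog (17.3, 18.1 and 16.7), LEF1 of the Wnt pathway (22.1, 16.9 and 19.6), MYCL, STAT4 and FOSB were at background.

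Receptor tyrosine kinases pass growth factor signals across the membrane, and 22 of 53 were above the bound (41.5%). MET stood at 3933, 4123 and 3871 by 4 of 4 probe sets and AXL at 2686, 2737 and 2620.5. RYK, a Wnt-binding member (2238, 2193 and 2218), EPHA2, an ephrin receptor (1933, 1807 and 2024), and EGFR (946, 1013 and 1056) followed. IGF1R (469.7, 522 and 450.1), ROR1 (438, 507 and 421) and LMTK2 (443) were also above it. KDR of endothelium (6.54, 6.53 and 7.50), PDGFRA (10.8, 11.02 and 11.6) and PDGFRB (16.8) of stroma and CSF1R of macrophages (12.3) were at background. FGFR2 was at background with a margin of -0.0116 log2 units to its bound (21.8, 23.4 and 25.7). Of the EGFR family, named after the values were seen, ERBB2 stood at 109, 105 and 123, and ERBB3 (22.97, 23.3 and 24.95) and ERBB4 (16.4, 16.4 and 18) were at background.

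Nuclear receptors are transcription factors switched by lipids and hormones, and 22 of 39 were above the bound (56.4%), close to the share over all genes. NR2F6 (1258, 1359 and 1296) and the glucocorticoid receptor NR3C1 (1248, 1219.9 and 1214) were the brightest. PPARG (359, 386 and 385), PPARD (295), ESRRA (359.5), NR2C1 (390.4), NR1D2 of the circadian clock (326) and NR2F1 (313) were above the bound. ESR2 (21.2, 20.5 and 21.8), the mineralocorticoid receptor NR3C2 (12.3, 16.4 and 14.2) and NR1I3 of liver (11.2, 12.1 and 12.1) were at background.

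The TGF-beta pathway, often cut in pancreatic cancer by loss of SMAD4 or a receptor, had both receptors of TGF-beta above the bound. TGFBR2 stood at 622, 654 and 658, TGFBR1 at 413, 456 and 404, ACVR1B at 298, 309 and 303, ACVR1 at 1044, 1009 and 946 and BMPR2 at 622, 613 and 587. BMPR1B (8.03), ACVR1C (9.22), the endothelial ACVRL1 (18.9) and the decoy BAMBI (21.3) were at background, so 9 of 14 were above the bound.

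In the Notch, Wnt and Hedgehog list 24 of 37 were above the bound (64.9%). DKK1, a secreted inhibitor of Wnt receptors, was the brightest, with 8366, 8494 and 8379, and DKK3 stood at 2326, 2377 and 2311. NOTCH2 (2614, 2581 and 2608) and the ligand JAG1 (1942, 1814 and 1814) led the Notch genes. DLL3, a Notch ligand that acts inside the cell, stood at 1548, 1493 and 1493 by 1 probe set, and its 3 other probe sets were dim, with means from 31.1 to 47.2. The Wnt receptors FZD7 (833, 999.8 and 904) and FZD6 (509, 574 and 514) and the ligand WNT5B (519) were above the bound. LGR5, a marker of gut stem cells (10.8, 11.2 and 10.3), DLL1 (14.3), IHH (18.8) and FZD10 (7.14) were at background. SHH, chosen after its value was seen, stood at 184, 167 and 167 by 1 of its 2 probe sets.

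In a list of G protein-coupled receptors, for peptides, lipids and other signals, 28 of 53 were above the bound (52.8%). GPRC5A, an orphan receptor of epithelium, stood at 2141, 2216 and 2266, the adenosine receptor ADORA2B at 1736, 1742 and 1812 and the prostaglandin E receptor PTGER4 at 1119, 1291 and 1164. F2R, the thrombin receptor, stood at 756, 859.9 and 743, the beta-adrenergic receptor ADRB1 at 651, 688 and 661 and the lysophosphatidic acid receptor LPAR3 at 289.8, 345 and 276. The other probe sets of ADRB1 were at background, with means of 18.4 and 17.4. The adhesion receptors ADGRG1 (773) and ADGRE5 (687) were above the bound. The other ADGRG1 probe set, with a mean of 23.3, was not above it on every array. The bradykinin receptors BDKRB1 (11.8) and BDKRB2 (12.2), the gastrin receptor CCKBR (13.5) and the chemokine receptors ACKR3 (8.96) and CCR7 (7.32) were at background. NTSR1, the neurotensin receptor, stood at 211, 232 and 251, while its ligand gene NTS was at background (16.3, 10.6 and 11.9), both picked after their values were seen.

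Cytokine receptors were above the bound in 25 of 34 cases (73.5%). IL6ST, the shared gp130 subunit of the IL-6 family, stood at 3594, 3766 and 3415, and its partners OSMR (692, 751 and 747) and LIFR (492, 547 and 496) were present. TNFRSF12A, the TWEAK receptor, stood at 2748, 2796 and 2761, IL13RA1 at 1909, 1905 and 1958 and TNFRSF21, a death receptor, at 1391, 1433 and 1414. IFNGR2 (739.5) and TNFRSF1A (559.5) were above the bound. The growth hormone receptor GHR (7.19, 7.34 and 7.72), the leptin receptor LEPR (10.8, 10.1 and 9.60) and the lymphocyte subunit IL2RG (11, 8.68 and 10.01) were at background.

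Secreted factors were above the bound in 32 of 54 cases (59.3%). After MIF the brightest was the monocyte attractant CCL2, with 3948, 3903 and 4207. CSF1, the macrophage growth factor, stood at 932, 952 and 921, GDF15, a stress cytokine, at 754, 732 and 733 and galanin, GAL, at 661, 666 and 722. EDN1, endothelin 1 (548, 607 and 621), VEGFC (548, 558 and 601) and VEGFA (474, 549.6 and 512) were above the bound. EGF (6.78, 6.86 and 5.91), betacellulin BTC (7.72, 6.63 and 6.84), BMP2 (10.1, 10.3 and 10.5), CXCL5 (8.51, 7.52 and 7.95), CXCL12 (13.3, 12.7 and 13.3) and CCL20 (9.66, 11.1 and 10.2) were at background. IL6, looked at after its receptor subunit had been seen, stood at 15.1, 15.1 and 13.96, also at background.

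Integrins bind matrix through paired alpha and beta chains, and 12 of 25 were above the bound (48.0%). The beta chains ITGB1 (9346, 9422 and 9628) and ITGB5 (3715, 3359 and 3557) were bright. Among alpha chains ITGAV of vitronectin receptors (4119, 4166 and 4007), ITGA2 of collagen receptors (2938, 3099 and 2845), ITGAE (1149.9, 1152 and 1106) and the laminin-binding ITGA6 (788, 839 and 724) and ITGA3 (311, 370.4 and 350.0) were above the bound, and ITGA5, the fibronectin receptor, stood at 143, 157 and 171. ITGA1 (10.5), ITGA4 (9.78), ITGA8 (13.6), ITGA9 (13.3) and the leukocyte chain ITGAL (14.2) were at background.

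Collagen genes were split. COL5A2 (1622, 1569 and 1662) and COL11A1 (1148, 1285 and 1182), minor fibrillar chains, and COL18A1 of basement membrane, the source of endostatin (985, 1074 and 1113), were far above the bound. COL1A1 stood at 584, 658 and 572 by its brightest probe set, while 2 of its 5 probe sets were at background. Its partner chain COL1A2 was at background by all 3 probe sets (11.4, 11.7 and 11.04), and COL3A1 by all 5 (11.4, 11.2 and 11.95). COL7A1, the anchoring fibril chain, stood at 92.7, 83.8 and 82.4 and COL6A1 at 189.5, 208 and 215 by 2 of 8 probe sets. COL15A1 (5.68), COL14A1 (9.33) and COL10A1 (11.7) were at background. Of 34 collagens 13 were above the bound (38.2%).

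Laminin genes gave the chains LAMC1 (1188, 1258 and 1201), LAMB1 (606, 696 and 633) and LAMA5 (431, 418 and 407), with the basement membrane proteins HSPG2, perlecan (610.0, 603 and 619.8), and NID1, nidogen (490.2, 651 and 561). LAMB3 of anchoring laminin (12.9, 10.1 and 12.2), LAMA1 (14.4), LAMA2 (15.6) and NID2 (8.11) were at background, and 9 of 13 were above the bound. Among matricellular proteins and proteoglycans 22 of 44 were above it. CD44, the hyaluronan receptor, stood at 9579, 9456 and 9648. CCN1 (6385, 5829 and 6409.6) and CCN2 (3285, 2747 and 3393), secreted proteins induced by YAP and TAZ, were bright, and both were lowest on replicate 2. The syndecans SDC4 (1051), SDC1 (537) and SDC2 (488) and THBS1 (519.6) were above the bound, while BGN (14.5), CCN3 (18.7), COMP (14.1) and elastin, ELN (21.5), were at background.

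Matrix enzymes and their inhibitors were above the bound in 37 of 47 cases (78.7%). PLAU, the urokinase that activates plasminogen, stood at 4992, 4508 and 4715, TIMP1, a metalloprotease inhibitor, at 2868, 2827 and 3095 and CTSB, cathepsin B, at 2443, 2442 and 2431. The collagen-modifying enzymes PLOD2 (2235, 2507 and 2337) and P4HA1 (1234, 1275 and 1234) and the sheddases ADAM9 (2258) and ADAM10 (2227) were bright. TFPI, the inhibitor of tissue factor, stood at 993, 1116 and 1045. PLAT, the other plasminogen activator, was at background (20.7, 19.4 and 17.6), as were the secreted proteases MMP3 (9.56), MMP8 (8.39), MMP10 (11.4), MMP12 (9.11) and MMP13 (8.33). Other genes of that family were above the bound, among them MMP7 and, named after their values were seen, MMP11, MMP14, MMP15 and MMP24. LOXL3 was the list member closest below its bound, with a margin of -0.0106 log2 units.

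Gel-forming and surface mucins of pancreatic cancer were mostly dim. Of 19 mucin and glycocalyx genes 5 were above the bound (26.3%), and 3 against the 99th percentile. CD164, a sialomucin of many cells, stood at 3864, 4304 and 4097, and PODXL, podocalyxin, at 1033, 1107 and 1125. MUC1 was above the bound, and MUC12 (31.7, 37.2 and 34.98) and CEACAM1 (26.8, 31.8 and 36.8) were so by small margins. The other probe sets of CEACAM1 were at background, with means of at most 19.0. MUC16 (17.7, 15.5 and 18.4), MUC13 (12.2, 13.3 and 9.80), MUC2 (17.6, 16.4 and 15.6) and mesothelin, MSLN (8.23, 7.89 and 8.46), were at background. MUC4, MUC5AC and MUC6 passed on some arrays.

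Glycolysis splits glucose to pyruvate, and tissues use different isozymes for its steps. PANC-1 showed the widely used isozymes. LDHA stood at 11715, 12057 and 12224, GAPDH at 11702, 11615 and 11846, ENO1 at 9745, 9315 and 9784, LDHB at 9290.4, 9179 and 9307, ALDOA at 8644, 9009.9 and 9071, PGK1 at 7459, 7449.6 and 7670.4 and PGAM1 at 7355, 7556 and 7637. Several isozymes of testis (LDHC, 20.5, PGK2, 11.7, GAPDHS, 10.3), muscle (PGAM2, 11.7) and liver (PKLR, 12.9) were at background. Other isozymes named for a tissue did pass. ENO2 of neurons stood at 129, and ALDOC of brain was dim but above the bound (28.7, 30.6 and 28.7). PFKM of muscle and PFKL of liver were above the bound too, and ENO3 of muscle passed on some arrays. ALDOC, PFKM, PFKL and ENO3 were named after their values were seen. Of 25 genes 18 were above the bound (72.0%). For glucose entry and capture HK1 stood at 1525, 1441 and 1497, HK2 at 217, 208 and 197 and the transporter SLC2A1 at 116, 107 and 110.5 by 1 of 2 probe sets. SLC2A6 (253), SLC2A13 (177) and SLC2A8 (123) were above the bound. SLC2A3 (9.32, 10.9 and 10.2), the insulin-regulated SLC2A4 (11.9, 9.99 and 13.9), SLC2A2, SLC5A1 (10.7) and HK3 (19.3) were at background, and 8 of 17 genes were above the bound.

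The reverse pathway, gluconeogenesis, was represented by its mitochondrial enzyme PCK2 (111, 117 and 113), while the cytosolic PCK1 (6.85, 6.65 and 7.35), FBP1 (13.1, 13.2 and 12.1) and G6PC1 (7.48, 7.84 and 6.90) were at background. Of the urea cycle ASL (602, 569 and 574) and ASS1 (113, 118 and 114), which also serve arginine synthesis outside the liver, were above the bound, CPS1 was dim but above it (35.8, 32.5 and 40.6), and OTC (9.20, 9.02 and 9.60) and ARG1 (8.41, 9.62 and 10.5) were at background. The count was 5 of 13, and 3 against the 99th percentile.

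Glutamine, serine and one-carbon metabolism was above the bound in 19 of 21 cases (90.5%). TYMS, thymidylate synthase, stood at 6123, 6272 and 6096, the glutamine transporters SLC38A2 and SLC38A1 at 5892, 5892 and 5873 and at 2210.4, 2390.0 and 2307, and the mitochondrial folate enzyme MTHFD2 at 4705, 4672 and 4720.0. PSAT1 of serine synthesis (1985, 2214 and 2169), GLUD1 (2197), MTHFD1 (2345) and the leucine transporter SLC7A5 (1802) were bright. The cytosolic SHMT1 (9.30, 9.22 and 9.30) and the mitochondrial MTHFD1L (9.84, 9.65 and 9.18) were the 2 at background, each by both of its probe sets. The pentose phosphate and NADPH list had 12 of 13 above the bound, among them TALDO1 (4102), TKT (2001), NQO1 (1526), RPE (1439.9) and ME1 (1107), with TKTL1 at background (11.6).

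For lipids 18 of 25 genes were above the bound (72.0%). The elongase ELOVL5 (5264, 5496 and 5357), the fatty acid binding protein FABP5 (3415, 3344 and 3342), the desaturase SCD (1506, 1531 and 1490.3) and ACLY, which makes cytosolic acetyl-CoA (1438, 1546 and 1516), were bright. The oxidation genes CPT1A (1222, 1305 and 1113) and ACADM (1216, 1366 and 1184) and SQLE of sterol synthesis (825) were above the bound. The uptake genes CD36 (8.88, 11.3 and 10.1) and LPL (10.3, 9.57 and 9.57), FABP1 of liver (14.3), FABP4 of fat (12.4) and ELOVL6 (17.8) were at background.

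Genes that handle foreign compounds were above the bound in 11 of 28 cases (39.3%). CYP1B1, a target of the aryl hydrocarbon receptor, stood at 2951, 3102 and 3058, and the receptor, AHR, at 362, 388 and 351. ALDH1A3, a retinal dehydrogenase, stood at 2771, 3184 and 2818, whereas its relatives ALDH1A1 (6.67, 7.49 and 6.36) and ALDH1A2 (11.6, 12.8 and 11.04) were at background. The conjugating enzymes GSTP1 (2675, 2491 and 2566) and GSTM3 (2156) and the exporters ABCC1 (2584, 2583 and 2546), ABCG2 (941, 958 and 946) and ABCC3 (286, 296 and 265) were above the bound. ABCB1, the exporter P-glycoprotein, was at background (10.6, 12.7 and 12.3), as were ABCC2 (18.9) and the aldo-keto reductases AKR1B10 (9.14), AKR1C1 (16.4), AKR1C2 (15.5) and AKR1C3 (6.70).

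Nucleoside drugs such as gemcitabine enter through SLC28 and SLC29 transporters and are activated by DCK and inactivated by CDA. DCK stood at 701, 767 and 692 and CDA was at background (10.04, 9.23 and 10.04). The concentrative transporters SLC28A1 (11.5, 11.4 and 11.5), SLC28A2 (12.2, 13.1 and 12.5) and SLC28A3 (8.92, 7.64 and 7.44) were at background, and the equilibrative SLC29A1, chosen after its value was seen, stood at 367, 367 and 412. The ribonucleotide reductase subunits RRM2 (7020.4, 7465 and 7137) and RRM1 (4297, 4351 and 4206) and the ectonucleotidase NT5E (3810.2, 3519 and 3587) were bright. The list had 15 of 19 above the bound (78.9%), with CDA and the SLC28 genes as the 4 at background.

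Of 25 measured driver and suppressor genes of pancreatic cancer 23 were above the bound (92.0%). SMAD4 stood at 226, 274 and 251, the splicing factor SF3B1 at 3796, 3785 and 3778, the G protein subunit GNAS at 9163, 9547 and 9751 and the kinase AKT2 at 3328, 3090.3 and 3387. ARID1A of chromatin remodelling (1170.3, 1336 and 1265), RB1 (918, 1042 and 872) and CDKN1A (962, 755 and 924) were above the bound as well. The 2 genes at background were CDKN2A and CDKN2B, inhibitors of cyclin-dependent kinases that lie side by side on chromosome 9 and are often deleted in this cancer. CDKN2A had signals of 22.02, 24.7 and 24.9 on its brightest of 3 probe sets, each just under its array's bound, and CDKN2B stood at 15.8, 17.8 and 15.9.

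The genes around CDKN2A were read in the order of the RefSeq annotation. MTAP, next to it, stood at 339, 373 and 343 by 1 probe set, and its 5 other probe sets were at background, with means from 7.34 to 14.95. DMRTA1 (10.8, 11.5 and 10.7) and ELAVL2 (7.65, 8.31 and 9.20), further on the same side as CDKN2B, were at background. So were the interferon genes IFNE, IFNA1, IFNA8, IFNA2, IFNA5 and IFNA14. Most cells keep the IFNA genes silent without infection. The next genes with signals above the bound were KLHL9 on the interferon side (256, 304 and 290.3) and TUSC1 (189, 189 and 181), CAAP1 (298, 312 and 287) and PLAA (282, 308 and 286) on the other. Thus CDKN2A, CDKN2B, DMRTA1 and ELAVL2 were neighbours among the measured genes and all at background, with MTAP read differently by different probe sets. A deletion and a silent gene cannot be told apart from these signals.

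Cancer-testis antigens, genes of germ cells that tumours can reactivate, were at background in 18 of 20 cases. PRAME stood at 605, 618 and 585 and DDX43 at 456, 492 and 459. MAGEA1 (15.2, 14.2 and 14.2), MAGEA10 (10.3), MAGEA11 (6.74), MAGEA12 (8.10), CTAG2 (12.1), GAGE1 (7.81), BRDT (8.74) and CTCFL (6.78) were at background.

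Antigen presentation showed class I and not class II genes. B2M, the light chain of class I, stood at 9487, 9315 and 9517. HLA-B (1451, 1451 and 1536), HLA-C (1827, 1800.3 and 2009) and HLA-E (1931, 1813 and 1949) were bright, although the sequences of class I genes are so alike that probes can share signal. The peptide transporters TAP1 (463, 439 and 482) and TAP2 (609, 578 and 618) were above the bound. The class II gene HLA-DRA (11.1, 10.5 and 11.9), the invariant chain CD74 (20.8, 22.5 and 18.1) and the class II activator CIITA (16.9, 20.5 and 17.4) were at background, as were NLRC5 (9.01) and CD274, which encodes PD-L1 (10.4, 10.4 and 9.41). The list had 11 of 19 above the bound (57.9%).

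Markers of other cells that a culture could hold were mostly at background, except in the neuronal list. The endothelial, stromal and hepatocyte and red cell lists also had members above the bound. Of 13 leukocyte markers 0 were above the bound, 11 were at background, among them CD14 (11.6, 11.6 and 9.18), LYZ (7.50, 7.90 and 7.03) and CSF1R, and CD79A and ITGAM passed on some arrays. Without replicate 2, CD79A and ITGAM counted as above it. The summed signal of the list was 185, 170 and 186. Of 12 endothelial markers EGFL7 (52.1) was above the bound, as were CLDN5 (32.3) and ROBO4 (30.6) by small margins. CDH5 (11.7, 11.7 and 12.1), PECAM1 (20.4, 15.1 and 23.4) and KDR were at background. Against the 99th percentile 1 of the 12 was above it. Among 14 stromal markers COL1A1 (584, 658 and 572), THY1 (70.3, 70.3 and 78.8) and DCN (30.95, 26.9 and 29.4, by 1 of 7 probe sets) were above the bound, and LUM (8.02, 7.80 and 7.50), PDGFRA, PDGFRB, COL3A1 and COL1A2 were at background. The summed signal of the stromal list was 854, 914 and 849, of which COL1A1 made up the greater part on every array.

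Among hepatocyte and red cell markers HBB (55.99, 43.1 and 49.2), TTR (41.9, 33.8 and 39.9) and CYP3A4 (35.6, 36.1 and 34.8, by 1 of 5 probe sets) were above the bound and 9 of 12 were at background, among them ALB (9.57, 10.8 and 10.4) and APOA1 (12.1, 17.2 and 12.8). Against the 99th percentile 1 of the 12 was above it. Several neuronal markers were far above the bound. TUBB3, a beta tubulin of neurons and of many carcinomas, stood at 4153, 4103 and 4603, the adhesion molecule L1CAM at 1452, 1621 and 1643 and MAP2, which binds microtubules, at 405, 471 and 399. ENO2 (129) and SYT1 (72.3) were above the bound too, and DCX (10.2, 9.71 and 10.6), GAP43 (13.5, 12.4 and 12.7), UCHL1 (16.5, 17.7 and 16.5) and ELAVL4 (11.6, 11.6 and 11.4) were at background. The count was 8 of 19, and 5 against the 99th percentile. The summed signal of the neuronal list was 6496, 6683 and 7156, highest on replicate 3, while TUBB3 alone made up most of it. All 13 reference genes and all 31 measured ribosomal protein genes were above the bound.

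**Figure D5:**
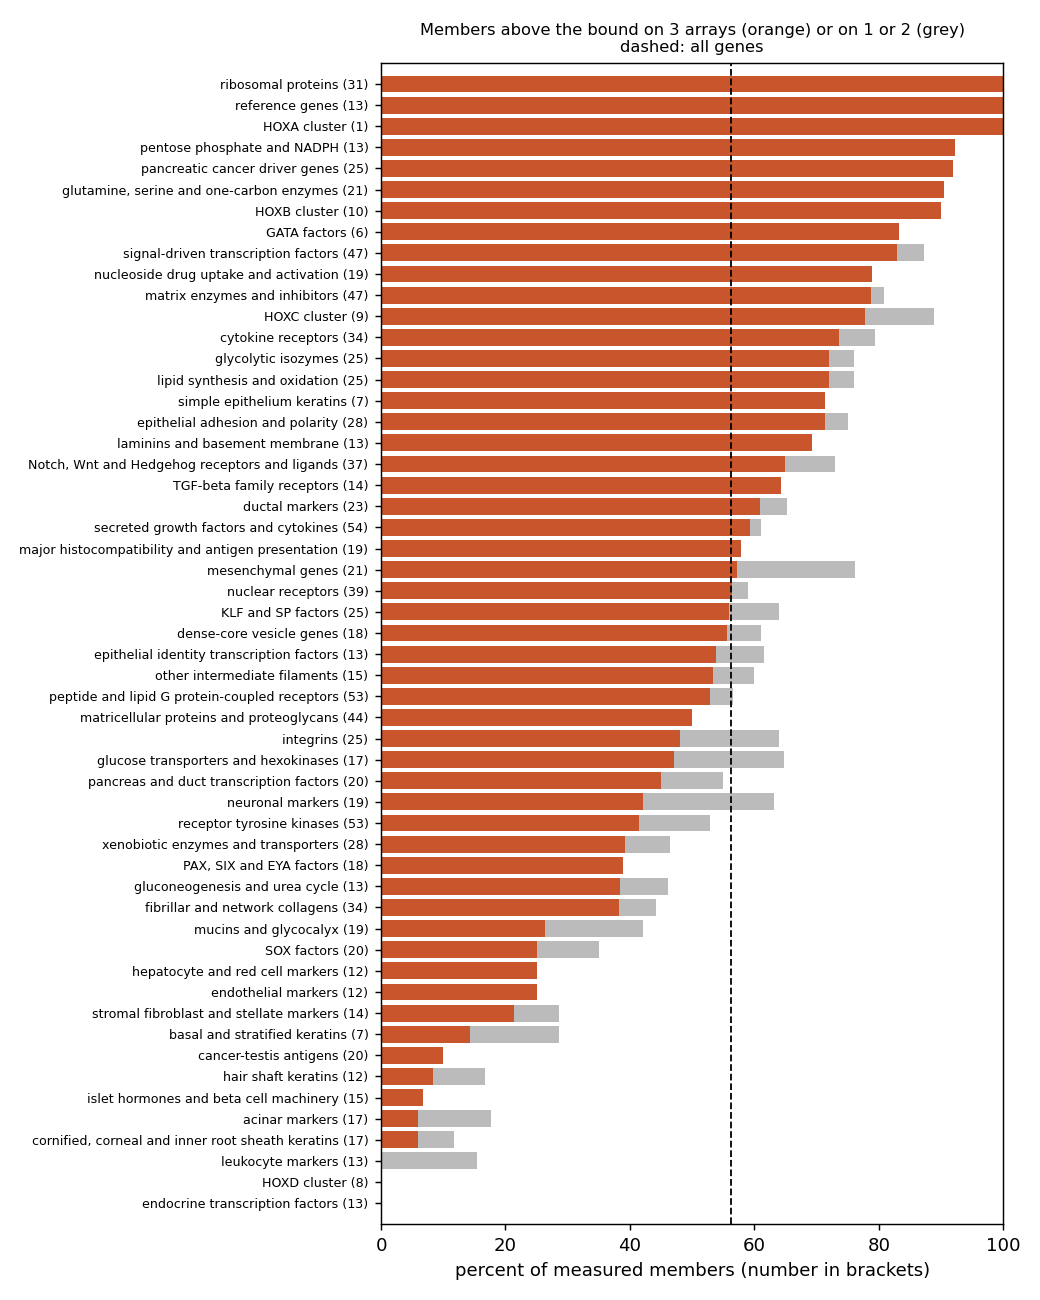
Percent of measured members above the bound on all 3 DMSO arrays (orange) or on 1 or 2 (grey) in each of 54 gene lists (y axis, number measured in brackets); the dashed line marks 56.2%, the share over all genes. Endocrine factors, HOXD genes and leukocyte markers have no orange bar, while the pentose phosphate, one-carbon, HOXB and driver lists reach far right of the line.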

How the data were processed

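RNA of 9 PANC-1 samples was hybridised to Affymetrix arrays carrying 54675 probe sets, and the 3 DMSO samples were used here. The deposited values are intensities on a linear scale, summarised per array with MAS5 per the submitters' processing notes. They were used as deposited, with no further scaling, no pseudocount and no low-value filter, and log2 was taken. Since 14.5% of probe sets have exactly equal values on 2 or more of the 3 arrays, a further scaling step by the authors is possible and is not given in the sources used here.

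The platform annotation gave 1 symbol to 41097 probe sets, several to 1801 and none to 11777, which were left out. Each gene was read from its probe set with the highest mean. With 1 group there was no contrast and no test. The accuracy of calls close to the lower bound was not tested. Python 3.11.15, numpy 2.4.6, pandas 2.3.3 and matplotlib 3.10.9 were used. Promoters are RefSeq's (GRCh38.p14).

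The members and lists were chosen with earlier results of these data known. Genes named are the 25 brightest, the 10 above the bound with the largest SD, up to 8 per list and class (above by signal, at background by alphabet), a fixed set of pancreatic and keratin genes, the 3 nearest either side of the bound and 10 neighbours either side of CDKN2A. The number of arrays limits the precision. Alternatives changed the bound, the probe set rule, the normalization, the filter and the replicates.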

Additional observations from a re-analysis of the deposited data

How the results depend on the processing

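The number of genes above the bound, 11121, became 9751 with the 99th percentile of the background families and 11910 with the 90th. It was 11555 with olfactory receptors alone and 12335 with the median of all probe sets as the bound. The mean of a gene's probe sets gave 10391. Using probe sets with the suffixes _x_at, _s_at and _a_at only for genes without any other gave 10202. The number was 11117 after quantile normalization, 10479 with the lowest 25% filtered out and 11423 with array means. Leaving out 1 replicate gave 11134 to 11299. Most named genes kept their class: of 677, the fewest that did were 605, with the median of all probe sets as the bound. List counts that moved by over 1.5 times were these. With the 99th percentile: pancreas and duct factors 5, islet genes 0, dense-core vesicle genes 5, ductal markers 9, hair keratins 0, HOXA 0, mucins 3, gluconeogenesis and urea cycle 3, neuronal 5, endothelial 1 and hepatocyte and red cell markers 1. With the 90th: islet 2, acinar 3, stratified keratins 3, cornified 2, hair 2 and leukocyte 2. With olfactory receptors alone: cornified 2, hair 2 and leukocyte 1. With the median of all probe sets: endocrine factors 2, islet 2, acinar 3, stratified 3, cornified 3, hair 2, SOX 10, gluconeogenesis and urea cycle 8, leukocyte 2 and stromal 5. With the mean of probe sets: islet 0, cornified 2, hair 2, mucins 3 and hepatocyte and red cell 1. The last was also 1 with the suffixed probe sets used only for genes without any other. With the lowest 25% filtered out: islet 0, HOXA 0, mucins 3 and endothelial 1. With array means: stratified 2, cornified 2, hair 2 and leukocyte 1. Without 1 replicate the counts ran from 1 to 2 for acinar, cornified and hair lists and from 0 to 2 for leukocyte markers. The other lists stayed within 1.5 times. The causes were not tested. No paired analysis was possible because the results come from no test and from 1 group. Signals of about 20 to 40 lie within reach of the bound, and such genes have no firm class.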
